A study of Gallus gallus with 66 samples.

Results

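A set of 40 probe sets, annotated to 35 chicken genes, differed between preadipocytes of a fat and a lean chicken line in every condition sampled. They were chosen from 38535 probe sets on Affymetrix chicken arrays, of which 27178 had 1 annotated gene. A probe set was kept where its mean over all 66 arrays was above 5, and where the fat mean differed from the lean mean by at least 0.5 with 1 sign in all 11 conditions. Of 12363 probe sets with 1 gene and a mean above 5, 1018 kept 1 sign in all 11 conditions, and 40 of those also reached 0.5 throughout. A further 6 probe sets passed without an annotated gene, and 2 more, of HPX and LBP, were left out by gene name. Because the line difference chose these members, it is given below as a description and carries no test.

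Cells came from abdominal fat of 15 male birds aged 10 days, pooled for each line. No further pool is named for a line, and whether all its arrays come from 1 pool is not given. Each line had 3 arrays in each of 11 conditions: uncultured cells, passaged cells that covered 50% of the dish (time −12 h) or 95% of it (time 0 h), and cells collected 12, 24, 72 and 120 h after 0 h with 160 µg/ml oleate or as untreated controls. The labels name the 3 arrays biological replicates, and give no separate birds, dishes or days for them, so p-values measure only the spread between arrays. Values are taken as log2, and all differences are log2 differences. The preadipocyte label was checked against stromal markers, each on its own scale, with an array median of 4.17: COL1A1, a collagen chain, stayed between 13.06 and 13.42 on all arrays, and DCN, the proteoglycan decorin, between 12.48 and 13.17. PDGFRA, a stromal growth factor receptor, lay between 2.37 and 6.80, and CD34, a surface marker, between 1.61 and 11.28.

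Preadipocytes are the fibroblast-like precursors that fill with lipid to become fat cells, and fatty acids such as oleate are used to push chicken preadipocytes towards that fate. The 35 genes form no single pathway. They include genes of the chicken major histocompatibility regions and immune receptors (BG8, MHCY4, CHIR-B3), mitochondrial enzymes and chaperones (SUCLG2, NDUFS3, HSPA9), secreted and matrix proteins (PTN, FBLN2, C2orf40), and genes of the cell cycle and nucleotide supply (CCNG2, RRM2B). In birds, B-G genes and MHC-Y genes belong to families of near-identical copies, so probe sets for BG8, MHCY4 and CHIR-B3 may read several copies.

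The labels give male birds, and probe sets for genes of the W chromosome, which only hens carry, gave signal that varied by replicate number. HINTW lay between 8.92 and 12.81 on all 66 arrays by its brighter probe set and between 1.61 and 6.95 by the other. A probe set of HNRNPKL averaged 2.02, 3.64 and 6.47 in the fat arrays numbered 1, 2 and 3 outside the control hours. The lean ones averaged 6.17, 6.88 and 6.11. In the control hours it averaged 6.58, 6.34 and 4.05 in the fat line, against 6.94, 5.58 and 4.48 in the lean line. A probe set of UBE2R2L averaged 2.74, 4.66 and 6.59 in the fat line outside the control hours, against 6.42, 6.94 and 6.07. Of 24 tested W-linked probe sets, 17 were lower in the fat line by 0.5 or more on average. They include the member LOC430910, which the rule chose, and repeated probe sets of genes such as HNRNPKL and HINTW. The share of all tested probe sets lower by as much is not given. The brighter HINTW probe set averaged 9.50, 11.27 and 12.52 in the fat arrays numbered 1, 2 and 3 outside the control hours, against 12.41, 12.64 and 12.31 in the lean ones. One member, LOC430910, is W-linked in the RefSeq annotation of assembly GRCg7b. The part of this signal in the LOC430910 difference, and the sex of the pooled birds, was not tested.

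The direction was nearly balanced, with 19 probe sets of 18 genes lower in the fat line and 21 probe sets of 18 genes higher. ORAOV1 had a probe set in each direction. The mean difference over conditions was at least 1 in size for 23 members and at least 2 for 6: SUCLG2, LOC430910 and LOC770705, lower in the fat line, and CHIR-B3, DDTL and BG8, higher. The 3 fat arrays did not overlap the 3 lean arrays in 340 of 440 combinations of member and condition. Over all 22060 tested probe sets that share was 18.7%, and since the rule used the same values nothing is read from the contrast. In 8 members the arrays separated in all 11 conditions (0.0952% of tested probe sets did so in 1 direction), and in 0 members did all 33 fat arrays separate from all 33 lean arrays.

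**Figure D1:**
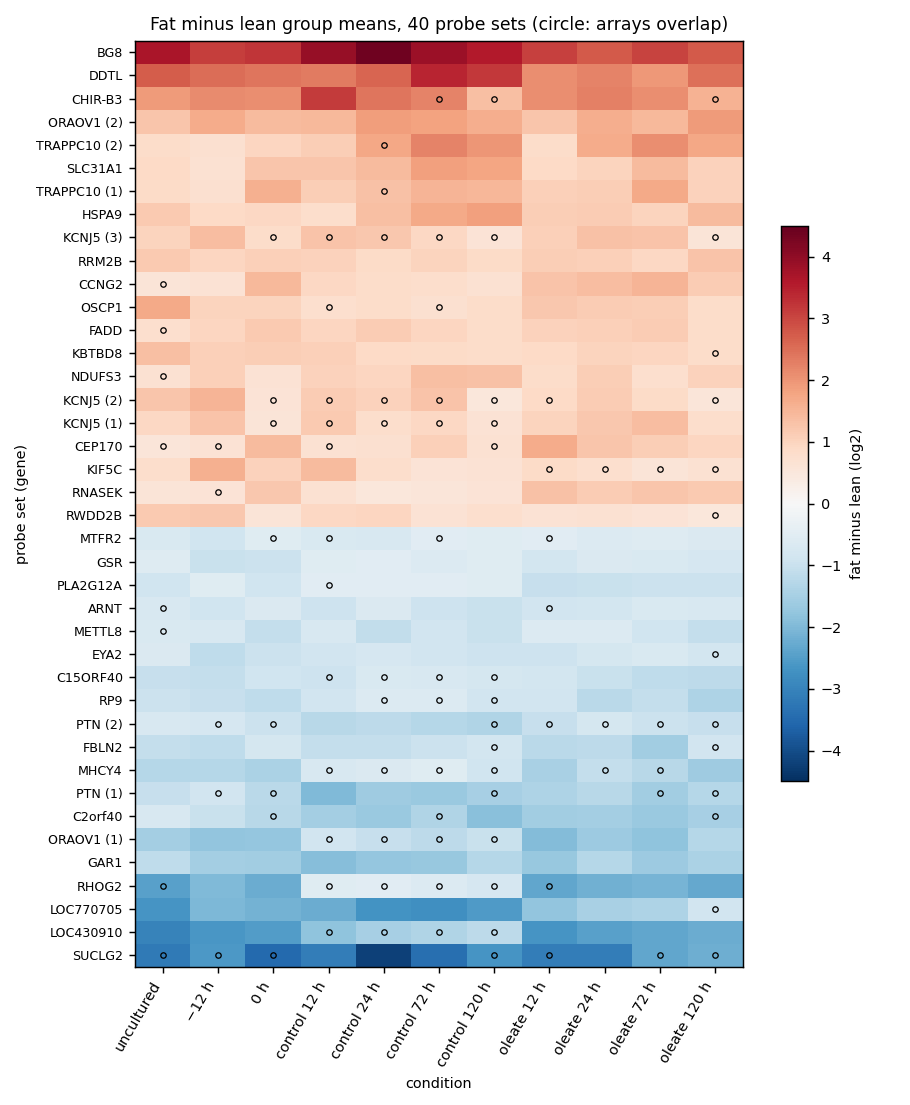
Heat map of fat minus lean group means (log2, colour) for the 40 member probe sets (rows) in 11 conditions (columns), each from 3 fat and 3 lean arrays, with circles where arrays of the lines overlapped. Upper rows are higher in the fat line and lower rows lower, and 340 of 440 cells have no circle.

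BG8, a B-G gene of the chicken MHC whose proteins resemble butyrophilins, showed the greatest excess in the fat line by its member probe set. In uncultured cells it measured 8.03, 6.98 and 8.49 on the fat arrays, against 1.61, 6.30 and 4.53 on the lean arrays. At control 24 h the fat arrays gave 7.21, 6.97 and 6.53, against 1.61, 1.61 and 4.31 on the lean arrays. All fat arrays lay between 5.59 and 8.49 with a median of 6.68, and the lean arrays between 1.61 and 6.30 with a median of 3.40. The difference averaged 3.40 and ran between 2.76 and 4.39 across conditions. The lines did not overlap within any condition, but 12 of 33 lean arrays were at the floor of 1.61 set for low values, so these differences depend on that floor.

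The lean BG8 values fell into levels that kept to the replicate number of the labels. Outside the control hours, lean replicates 1, 2 and 3 averaged 1.77, 5.65 and 3.67 over 7 conditions. In the control hours they averaged 1.84, 1.61 and 4.38 over 4 conditions, in another order. The fat replicates were alike, at 6.85, 6.60 and 6.93 outside the control hours and 6.86, 6.62 and 6.14 within them.

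SUCLG2, the subunit of succinyl-CoA ligase that makes GTP in the citric acid cycle, showed the greatest deficit in the fat line, with a mean difference of −3.04. Its fat arrays lay between 1.61 and 7.48 with a median of 3.58, and its lean arrays between 5.97 and 9.02 with a median of 6.98. In uncultured cells the fat arrays read 7.48, 1.70 and 2.01, against 6.79, 6.37 and 7.61 on the lean arrays. One fat replicate therefore stood at the lean level, and the arrays overlapped in most conditions. Fat replicates 1, 2 and 3 outside the control hours averaged 6.80, 2.95 and 2.63, against 6.61, 6.68 and 7.68 in the lean line. In the control hours fat replicates averaged 3.10, 6.02 and 3.40, against 6.26, 8.85 and 7.43 in the lean line.

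RHOG2 turned on a single numbered replicate outside the control hours. Fat replicates 1, 2 and 3 averaged 7.96, 8.83 and 4.28 there, against 8.94, 9.58 and 9.20 in the lean line. In the control hours, where fat replicates averaged 7.61, 8.65 and 7.20 and lean ones 7.93, 8.34 and 9.02, the arrays overlapped at every time. The mean difference of −1.63 became −0.76 without fat replicate 3 of the conditions outside the control hours.

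**Figure D2:**
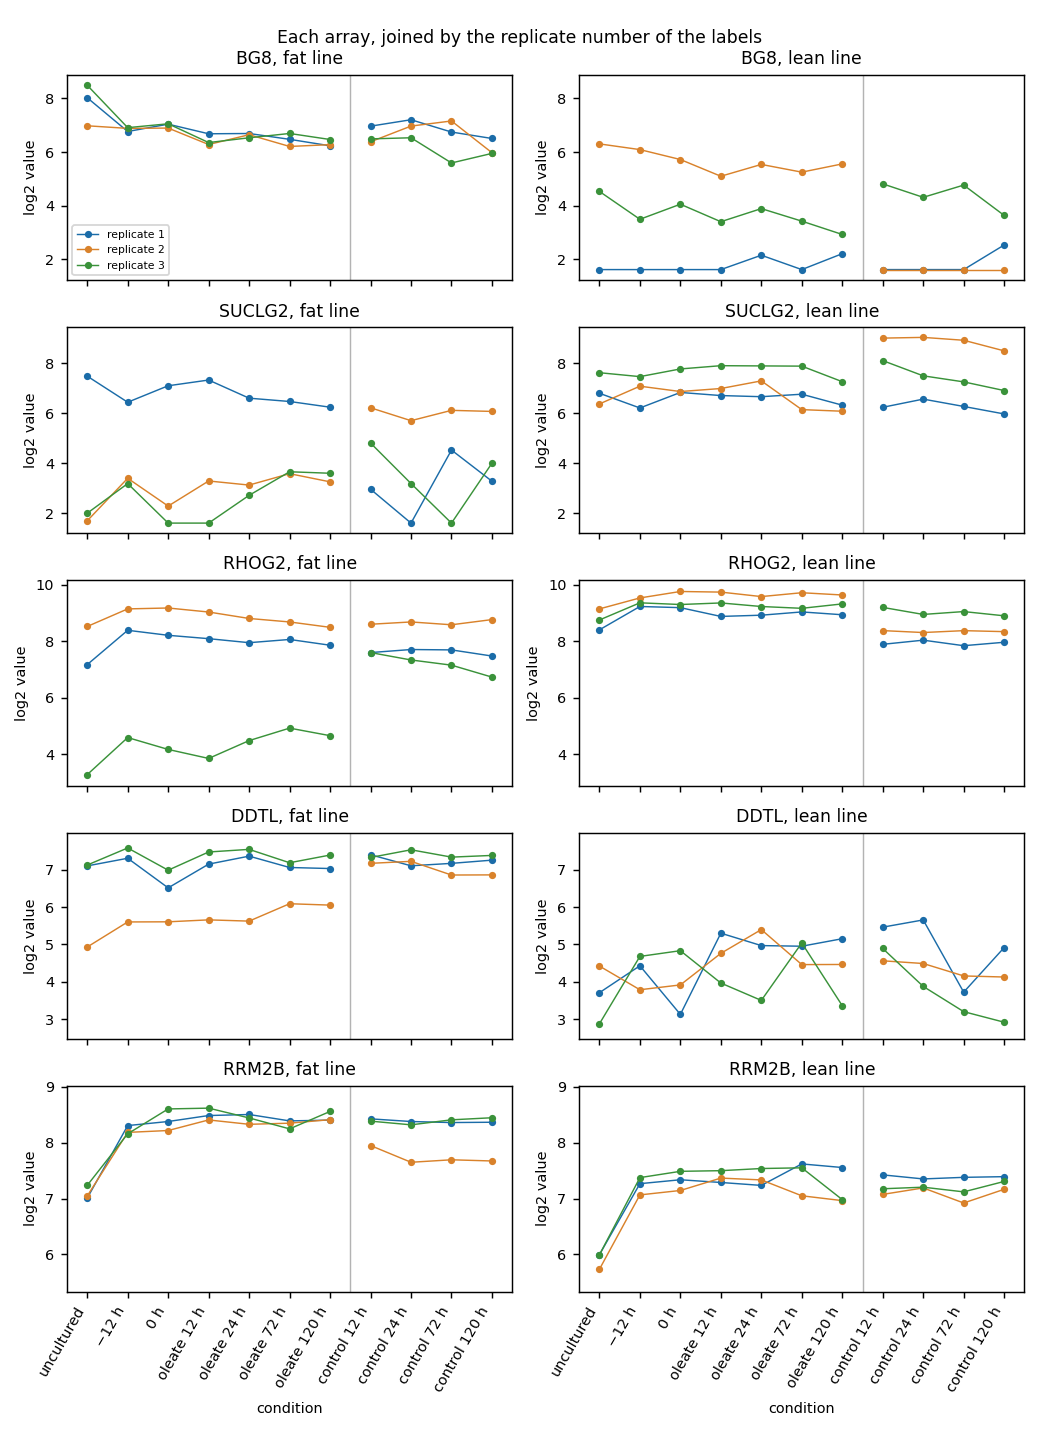
Values of each array (log2) for BG8, SUCLG2, RHOG2, DDTL and RRM2B, fat line in the left panels and lean line in the right, with conditions along the x axis and lines joining arrays of 1 replicate number. A grey rule parts the 4 control times from the other conditions. Lean BG8 replicates 1, 2 and 3 average 1.77, 5.65 and 3.67 left of the rule, and RHOG2 fat replicate 3 averages 4.28.

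Levels that follow the replicate number were common among the members. With arrays of 1 line and 1 number joined into 12 sets, the control hours apart from the other 7 conditions, the sets took up a median of 71.5% of the spread within groups for the members and 27.5% over all tested probe sets. By degrees of freedom alone the sets hold 18.2%. The members ranged between 16.1% (ORAOV1, the probe set higher in the fat line) and 98.1% (RHOG2), and 28 of 40 were above the 95th percentile of tested probe sets, 61.4%. The rule used the same values and can favour probe sets in which 1 set stays apart across conditions. Nothing is therefore read from the contrast with all tested probe sets. This division was chosen after seeing the data. Whether a number marks a pool of birds, a dish, an RNA preparation or a day is not given. Each line has 6 such sets.

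**Figure D3:**
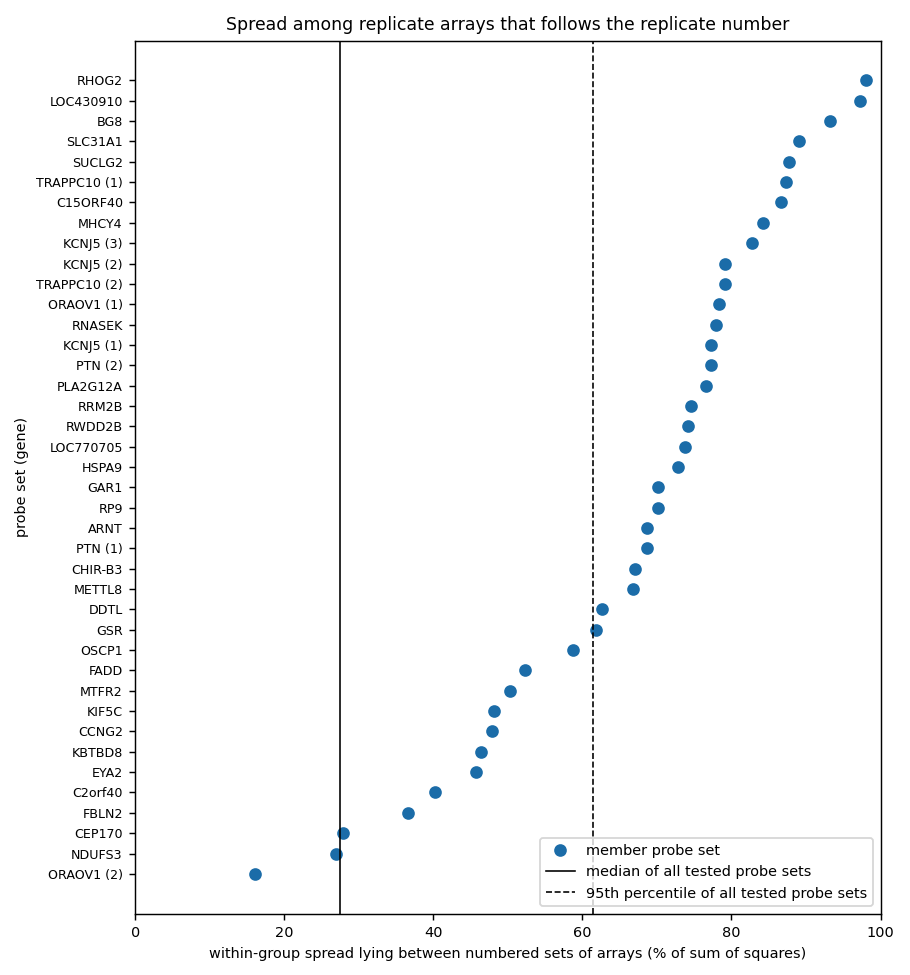
Share of the within-group sum of squares (%, x axis) lying between the 12 numbered sets of arrays, 1 point for each of the 40 member probe sets. The solid line is the median of all tested probe sets (27.5%), the dashed line their 95th percentile (61.4%), and 28 members lie beyond the dashed line.

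By set averages, 28 members kept all fat sets apart from all lean sets both within and outside the control hours, and 12 did not. Over all tested probe sets 6.43% were apart in this way, and since the rule used the same values nothing is read from the contrast. The members that overlapped were SUCLG2, LOC430910, RHOG2, the lower ORAOV1 probe set, MHCY4, PTN by 1 of its probe sets, RP9, C15ORF40, the 3 KCNJ5 probe sets and CHIR-B3. The difference of at least 0.5 with 1 sign held for 11 members without any 1 of the 12 sets. These were SUCLG2, GAR1, both ORAOV1 probe sets, C2orf40, KBTBD8, FADD, RRM2B, SLC31A1, DDTL and BG8. The minimum mean of 5 is not part of this count. BG8 had a mean of 5.002 over all arrays, so it does not keep that minimum without a fat set. Without 1 set the remaining 29 fell short of 0.5 somewhere. For CHIR-B3, a member of the chicken immunoglobulin-like receptors of leukocytes, the smallest difference became −0.37 (the opposite direction) without fat replicate 1 of the control hours. FBLN2 likewise reversed slightly, to −0.10 counted towards its own direction (lower in the fat line), without fat replicate 3 outside the control hours. So did 1 KCNJ5 probe set, to −0.05 without fat replicate 3 and to −0.02 without lean replicate 1 of the control hours.

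Among the other members lower in the fat line, GAR1, a protein of the particles that guide pseudouridine formation in RNA, separated in all 11 conditions. At control 12 h it read 6.22, 6.17 and 6.35 on the fat arrays, against 8.17, 8.20 and 8.15 on the lean arrays. Its difference averaged −1.54. GSR, glutathione reductase, also separated in every condition, with 8.66, 8.66 and 8.76 on uncultured fat arrays, against 9.18, 9.38 and 9.21 on lean ones, and a mean difference of −0.70. It had the smallest spread within groups of all members, an SD of 0.175.

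LOC430910 averaged −2.15 and LOC770705 −2.05, and neither carries a described name in the annotation. LOC430910 averaged 4.78, 4.79 and 6.96 in fat replicates 1, 2 and 3 outside the control hours and 3.81, 7.62 and 6.11 within them. The lean line gave 7.87, 8.48 and 7.82 outside the control hours and 8.08, 7.41 and 6.42 within them. The brighter HINTW probe set gave 9.50, 11.27 and 12.52 in those fat replicates outside the control hours and 12.55, 12.41 and 10.77 within them. MHCY4, an MHC-Y gene, averaged −1.11, and C15ORF40 −0.93.

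PTN, the heparin-binding growth factor pleiotrophin, averaged −1.39 and −1.03 by its 2 member probe sets. C2orf40, the precursor of the secreted peptide augurin, averaged −1.42, FBLN2, a fibulin of the extracellular matrix, −1.07, and PLA2G12A, a secreted phospholipase A2, −0.76. PTN, C2orf40 and FBLN2 varied more by condition than by line: condition took 79.4% of the spread of C2orf40 and line 12.6%. PLA2G12A varied more by line, at 47.9%, than by condition, at 31.1%. Remaining members lower in the fat line were RP9 at −0.96, EYA2, a transcriptional coactivator with phosphatase activity, at −0.85, METTL8, a tRNA methyltransferase in human cells, at −0.85, ARNT, the shared subunit of hypoxia-inducible factors, at −0.81, and MTFR2, a regulator of mitochondrial fission, at −0.63.

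Among members higher in the fat line, DDTL, related to D-dopachrome tautomerase, separated in all 11 conditions. It read 7.10, 4.93 and 7.12 on uncultured fat arrays, against 3.71, 4.42 and 2.88 on lean arrays, and its difference averaged 2.54. RRM2B, the ribonucleotide reductase subunit under p53 control, read 7.01, 7.05 and 7.24 on uncultured fat arrays, against 5.99, 5.73 and 5.99 on lean arrays. Its difference ran only between 0.87 and 1.29 across conditions. CHIR-B3 averaged 2.12, SLC31A1, the copper importer, 1.23, and HSPA9, the mitochondrial HSP70, 1.22.

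TRAPPC10, a subunit of a vesicle tethering complex, averaged 1.23 and 1.45 by 2 probe sets, and KCNJ5, an inwardly rectifying potassium channel, 0.97, 0.98 and 1.05 by 3. The names of the 2 TRAPPC10 probe sets differ only in their suffix, so they may not be separate readings. Other TRAPPC10 probe sets averaged −0.157, 0.004 and −0.045, the last above the array median on all 66 arrays. CCNG2, an unconventional cyclin, averaged 1.02, OSCP1 1.01, FADD, the adaptor of death receptors, 0.99, and KBTBD8, an adaptor of a CUL3 ubiquitin ligase, 0.99. NDUFS3, a core subunit of respiratory complex I, averaged 0.98, CEP170, a centrosomal protein, 0.97, KIF5C, a kinesin heavy chain, 0.88, RNASEK 0.88 and RWDD2B 0.80. Closest inside the threshold were RWDD2B with a smallest difference of 0.501, RNASEK with 0.502 and MTFR2 with 0.504. Closest outside were LOC107049264 with 0.494, CCNG1 with 0.486, TBL3 with 0.485, ALG2 with 0.484 and a second METTL8 probe set with 0.477.

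ORAOV1, whose product (LTO1) helps mature the ribosome recycling factor ABCE1 in yeast and human cells, moved both ways. The higher probe set read 5.42, 4.74 and 5.25 on uncultured fat arrays, against 3.82, 4.12 and 3.69 on lean arrays. The lower one read 3.57, 4.61 and 4.17 on uncultured fat arrays, against 5.36, 5.93 and 5.71 on lean arrays. Their mean differences were 1.58 and −1.44, and both separated the lines in uncultured cells, at −12 h, at 0 h and at every oleate time. In the control hours the lower probe set overlapped between lines at all 4 times. Another ORAOV1 probe set averaged −0.78.

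Other probe sets of the same genes often did not show the member's difference. There were 67 of them, covering 28 genes, and 29 of these were above the array median on all 66 arrays. Leaving out ORAOV1, which has no single direction, 6 of those 29 kept the member's sign in all 11 conditions, 11 had the opposite sign on average and 1 reached 0.5 in the member's direction. SUCLG2 had another probe set at a mean level of 10.03 with a difference of 0.12 and one at 7.67 with −0.24, lower in the fat line in all 11 conditions, and GAR1 one at 9.89 with −0.12. RHOG2 had 2 others with differences of 0.05 and 0.16, and HSPA9 one at 11.21 with −0.18. DDTL had one at 10.09 with −0.47, opposite to its member and lower in the fat line in all 11 conditions (−0.76 to −0.29). The brightest other BG8 probe set, at 5.69 and above the array median on 61 arrays, differed by −0.43, and the other BG8 probe sets by −0.93 to 0.37. Of all 64 other probe sets outside ORAOV1, dim ones included, 9 of 6 genes reached 0.5 in the member's direction and 3 in the opposite one. The 9 included METTL8 at −0.94 and −0.70, PTN at −0.89 and CHIR-B3 at 0.62. The 3 opposite ones were RWDD2B at −0.84, FADD at −0.63 and BG8 at −0.93, all genes with members higher in the fat line. KIF5C went the same way in all 11 conditions by a second bright probe set, at 0.67, and SLC31A1 by 3 others, at 0.46, 0.33 and 0.36, while another bright SLC31A1 probe set was at −0.16. Levels of different probe sets are not comparable, and which transcript or sequence each reads is not given in the files.

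**Figure D4:**
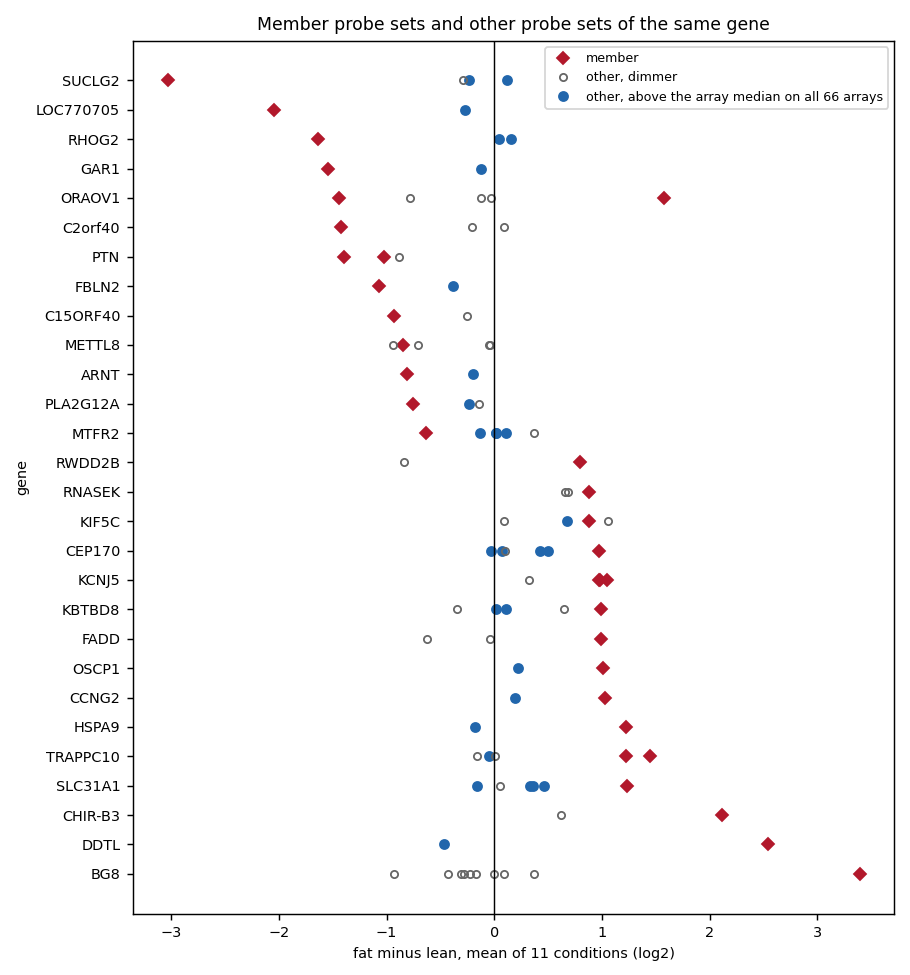
Mean fat minus lean difference over 11 conditions (log2, x axis) for the 28 member genes that have another probe set (rows). Diamonds are members, filled circles other probe sets above the array median on all 66 arrays, and open circles dimmer ones; the filled circles of SUCLG2, RHOG2, GAR1 and HSPA9 lie near 0.

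Members lay close together on a chromosome in a few cases, by the order of protein-coding genes in RefSeq GRCg7b. SUCLG2, lower in the fat line, and KBTBD8, higher, had 1 gene between them. GAR1 and PLA2G12A, both lower, also had 1 gene between them, and ORAOV1 and FADD 4. Among 112 tested genes within 3 places of a member, 28 were called in the line difference (adjusted p under 0.05 by limma with Benjamini-Hochberg adjustment), 25.0% against 27.6% of all tested probe sets. Leaving out neighbours of ORAOV1, 13 of the called neighbours had the sign of the member and 13 the opposite sign. Each neighbour was read by its brightest tested probe set. The fit took all arrays as independent, and no neighbour count is given that allows for the numbered sets.

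With members left out, the 12 pathway lists had median line differences between −0.12 and 0.06, while calls in some lists leaned to 1 direction. List calls depended on the fit: of 450 list genes 118 were called, but 72 with the 12 numbered sets as a random block. With members left out, 6 of 26 tested genes of mitochondrial respiration were called lower in the fat line and 1 higher, with a median of −0.03, against −0.01 over all tested probe sets. In the fit without a block, 12.8% of all tested probe sets were called higher and 14.8% lower. No such share is given for the fits with a block. For glutathione and detoxification 6 of 26 genes were higher and 2 lower, with a median of 0.06. For extracellular matrix 12 of 40 were lower and 1 higher, with a median of −0.11, and with that block 5 were lower and 1 higher. Under the block respiration had 4 genes lower and 1 higher, and glutathione and detoxification 4 higher and 1 lower. For one-carbon, amino acid and nucleotide metabolism 9 of 23 genes were lower and 1 higher, with a median of −0.12. With the 12 numbered sets as a random block 7 of these were lower and 0 higher. For triglyceride and fatty acid metabolism 8 of 35 were lower and 4 higher, and under that block 6 and 3. For Wnt, TGF-beta and growth factor signalling 9 of 47 were higher and 2 lower, and under that block 6 and 2. Calls of the remaining pathway lists, apart from MHC presentation, are not given. For MHC class I and II presentation 1 of 8 was lower and 0 higher. Of 14 macrophage and myeloid markers 3 were higher in the fat line and 0 lower, with a median of 0.42, and of 14 lymphocyte markers 0 were called by limma. With the numbered sets as a random block 1 of the myeloid markers was called, and with the replicate block 8, beside 1 lymphocyte marker. Over all conditions, array means of the myeloid list ran between 4.36 and 10.54 in the fat line and between 4.44 and 10.64 in the lean line. Within single conditions the fat minus lean difference of the list mean ran between −0.07 and 1.29. Their part in the CHIR-B3, BG8 and MHCY4 differences was not tested, and in bulk RNA fewer cells of a type and less RNA per cell cannot be told apart.

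Differences between conditions were not used to choose members, although the mean over all arrays was, through the minimum of 5. They were tested with limma, averaged over both lines, over all 22060 tested probe sets. Going into culture changed the most: at 0 h against uncultured cells, 29 of 40 members were called, 16 higher and 13 lower, against 68.9% of all tested probe sets (40.8% higher and 28.1% lower). C2orf40 lay between 4.93 and 7.29 with a median of 6.58 at 0 h, and between 8.76 and 10.02 with a median of 9.32 in uncultured cells. The 6 arrays at 0 h did not overlap the 6 uncultured arrays, and C2orf40 fell by 2.99 (SE 0.37, limma adjusted p = 8.1e-10). Its mean was 5.37 over all arrays and 9.39 over the uncultured arrays. C2orf40 therefore passed the minimum of 5 only through the uncultured arrays, so the choice of members favours this fall. PTN fell by 2.75 (limma adjusted p = 2.48e-05) by its more strongly changed probe set and FBLN2 by 2.00 (limma adjusted p = 2.27e-06), likewise with no overlap. MHCY4 fell by 2.20 (limma adjusted p = 2.17e-06) and CHIR-B3 by 1.91 (limma adjusted p = 0.0266), and the CHIR-B3 call was lost without a floor (limma adjusted p = 0.0749), without lean uncultured replicate 1 (0.0502) and without lean 0 h replicate 3 (0.0967).

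KIF5C lay between 4.29 and 6.28 with a median of 5.57 at 0 h, and between 2.62 and 3.93 with a median of 3.11 in uncultured cells, with no overlap. It rose by 2.19 (limma adjusted p = 4.44e-10). GAR1 rose by 1.86 (limma adjusted p = 1.08e-10), RP9 by 1.53 (limma adjusted p = 2.88e-08), MTFR2 by 1.43 (limma adjusted p = 7.48e-09) and RRM2B by 1.36 (limma adjusted p = 1.94e-13). Both ORAOV1 probe sets rose, by 1.02 and 1.18, although they differ in direction between lines. The line difference stayed within each member's direction on both sides of this change, as the rule requires.

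Oleate cultures differed from control cultures, averaged over 12 to 120 h, in 17 of 40 members, 8 higher and 9 lower, against 35.0% of all tested probe sets (17.4% higher and 17.6% lower). Here treatment cannot be told apart from the numbered sets, because oleate and control arrays belong to different sets and carry different styles of array name. PTN lay between 1.85 and 7.07 with a median of 4.52 in oleate, and between 3.91 and 8.75 with a median of 6.51 in control cells (24 arrays each, overlapping). It fell by 1.67 (SE 0.28, limma adjusted p = 4.44e-06), by 1.51 in the fat line and 1.82 in the lean line, and its second member probe set fell by 1.58. FBLN2 fell by 0.78 (limma adjusted p = 0.000403) and PLA2G12A by 0.56 (limma adjusted p = 6.75e-08).

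SLC31A1 rose with oleate by 0.59 (limma adjusted p = 0.00011) and CCNG2 by 0.46 (limma adjusted p = 3.28e-06). KCNJ5 rose by 0.58 and 0.61 at 2 of its 3 probe sets (limma adjusted p = 0.0215 and 0.0154), and both calls were lost without fat replicate 1 of the control hours (limma adjusted p = 0.247 and 0.187). With the 12 numbered sets as a random block, an alternative chosen after seeing the data, 13 members were called, and without fat or lean replicate 1 of the conditions outside the control hours 11 were. The share of all tested probe sets called under that block is not given. Its fit gave every probe set the same correlation within sets, 0.126. The sets took a median of 71.5% of the members' spread within groups. Neither these calls nor the p-values above fully account for that. C15ORF40, GSR, TRAPPC10 and C2orf40 lost their calls under that block. Within the numbered arrays that share a style of name, oleate at 12 h against 0 h changed 0 of 40 members by limma (0.549% of all tested probe sets, 0.417% higher and 0.131% lower), with 1 member at an unadjusted p under 0.05. The replicate block left this count at 0. This contrast has 6 arrays on each side, against 24 for oleate against control, and time differs in it as well as treatment. For the PTN probe set with an SE of 0.28 in oleate against control, the SE was 0.55 here. The count of 0 is therefore not compared with the 17 calls.

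For confluence and time in culture, the number of members called depended on the fit. At 95% against 50% confluence 2 of 40 were called (15.2% of all tested probe sets, 8.36% higher and 6.85% lower). PTN lay between 4.33 and 7.98 at 95% confluence and between 7.36 and 9.70 at 50%, with some overlap, by 1 of its member probe sets, and fell by 2.00 (limma adjusted p = 0.00967). The other PTN probe set gave −1.26 and was not called (limma adjusted p = 0.0702). CEP170 rose by 0.64 (limma adjusted p = 0.0249), with 1.04 in the fat line and 0.24 in the lean line. In the fat line the arrays at 0 h and at −12 h carry different styles of array name, so confluence and name style cannot be told apart there. The replicate block and the 12 numbered sets as a random block each gave 6 members, and the share of all tested probe sets under them is not given. Without fat replicate 3 or lean replicate 1 of the conditions outside the control hours 0 were called.

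Between 12 and 120 h in control cells 4 of 40 members were called (9.36% of all tested probe sets, 4.48% higher and 4.88% lower). C2orf40 lay between 1.61 and 4.37 at 120 h and between 4.10 and 6.22 at 12 h, and fell by 2.84 (limma adjusted p = 2.5e-06), with 3.02 in the fat line and 2.66 in the lean line. MTFR2 fell by 0.64 (limma adjusted p = 0.0283), RP9 rose by 0.80 (limma adjusted p = 0.015) and MHCY4 rose by 1.18 (limma adjusted p = 0.0414). In oleate 4 of 40 were called over the same span (13.3% of all tested probe sets, 6.36% higher and 6.92% lower). There C2orf40 fell by 2.44 (limma adjusted p = 1.3e-05), PTN by 1.70 by the probe set not called for confluence (limma adjusted p = 0.0142) and GSR by 0.37 (limma adjusted p = 0.0115), and RP9 rose by 0.71 (limma adjusted p = 0.0238). The other PTN probe set gave −1.30 and was not called (limma adjusted p = 0.113). With the replicate block 10 members were called in oleate, with the numbered sets as a random block 12 and with array weights 13, and in control cells array weights gave 8. These counts hung on single arrays: the control count was 1 without the fat control 120 h replicate 2, and the oleate count ran between 1 and 8 with 1 array left out. No share of all tested probe sets is given for the fits with a block or weights, so those counts cannot be compared with the shares above.

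**Figure D5:**
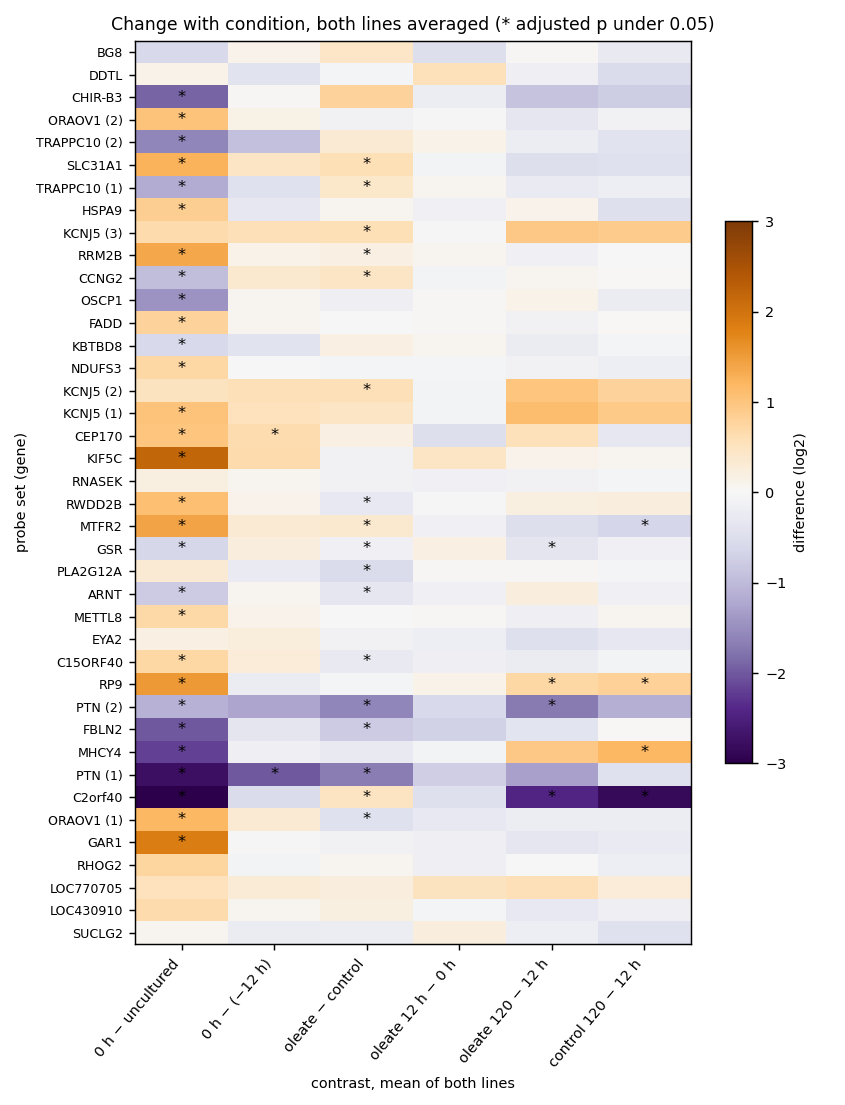
Differences between conditions averaged over both lines (log2, colour) for the 40 members (rows) in 6 contrasts (columns), with an asterisk where the limma adjusted p was under 0.05. Asterisks fill 29 cells in the column of 0 h against uncultured cells and 17 in the column of oleate against control, and none in that of oleate 12 h against 0 h.

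Line differences were not equal within and outside the control hours for every member. Over the uncultured, 0 h and oleate arrays RHOG2 averaged −2.26, against −0.61 in the control hours. LOC430910 averaged −2.53 against −1.46, MHCY4 −1.34 against −0.71, PLA2G12A −0.95 against −0.52 and RNASEK 1.11 against 0.59 in the same order. BG8 went the other way, with 3.09 over the uncultured, 0 h and oleate arrays and 3.93 in the control hours. The 96 control probe sets of the array differed between lines by −0.19 to 0.36. No test was made of these differences, since they are built from the values that chose the members.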

How the data were processed

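Affymetrix chicken arrays of 66 samples were used as deposited. The deposited values were taken as log2 from their range (lowest −5.23, highest 13.51; the arrays share a median of 4.17); per the submitters' processing notes MAS5 was used, and the log base, version and genome build are not given in the sources used here. The members and gene lists were chosen with earlier results of these data known. Lower values were raised to 1.61, the 20th percentile of a typical array (median of 66). Groups of 3 arrays came from the labels. limma 3.58.1 (R 4.3.3) fitted 22 group means with trended, robust eBayes to 22060 probe sets above the array median on all 3 arrays of a group; Benjamini-Hochberg adjusted p under 0.05 was a call. The fit was tested on data simulated with independent arrays and no numbered sets, so that test does not show how it behaves with such sets. The 96 control probe sets were left out. Named were every member, ordered by mean line difference within each direction or by role, the 5 nearest outside the threshold, and called members of each contrast; marker genes, HINTW and other probe sets were named after their values were seen. All 35 genes matched RefSeq by gene ID, which served only for names and gene order. Arrays of the same number deviated together in oleate 12 h and 0 h (correlations of deviations over 0.1 in 6 of 6 pairs, mean 0.28), so the numbers pair the samples there. Confluence and time in control had 5 of 6 such pairs (means 0.20 and 0.13), and time in oleate 4 of 6 (mean 0.14). The fit without a block ignores this pairing, and with the replicate block these 3 contrasts gave 6, 6 and 10 members. That block fits 1 level for each replicate number of a line over all conditions. It joins the control hours to the other conditions, although the level of a number could differ between them. It therefore models this pairing only in part. Going into culture had 1 of 6 such pairs and oleate against control 4 of 24. Array number limits precision. Alternatives were floors, filters, blocks, weights, normalization and left-out arrays; those on the 12 numbered sets were chosen after seeing the data.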

Additional observations from a re-analysis of the deposited data

How the results depend on the processing

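The number of members was 39 without a floor, 40 with a floor at the 30th percentile, 28 with group medians, 15 at a threshold of 0.75 and 56 at 0.4. It ran between 31 and 41 with 1 array left out and was 26 without fat replicate 3 of the conditions outside the control hours. Members called with oleate against control ran between 13 and 18 with 1 array left out and numbered 11 with the culture series as a random block and 11 without fat or lean replicate 1 outside the control hours. At 95% against 50% confluence 1 to 4 were called with 1 array left out, 6 with the replicate block, 4 with the culture series and 6 with the 12 numbered sets as a random block, against 1 without fat replicate 2 and 0 without fat replicate 3 or lean replicate 1 outside the control hours. For time in control 1 to 5 were called with 1 array left out, 8 with array weights, 7 with the culture series as a random block 2 without fat replicate 2 of the control hours, and 1 without fat replicate 3 or lean replicate 2 or 3 of those hours. For time in oleate 1 to 8 were called with 1 array left out, 7 with a filter at the 75th percentile, 10 with the replicate block, 13 with array weights, 12 with the culture series and 12 with the 12 numbered sets as a random block, against 2 without fat replicate 2 and 1 without lean replicate 3 outside the control hours, and 7 without fat replicate 1 of the control hours. The replicate block gave 19 for oleate against control and 30 for going into culture, which gave 26 to 30 with 1 array left out, and oleate 12 h against 0 h gave 0 throughout. Of 450 list genes 118 were called in the line difference, 140 with the replicate block, 72 with the 12 numbered sets as a random block and 111 to 133 with 1 array left out. In each case the cause was not tested, and the shares of all tested probe sets given above hold only for the fit without these changes. Of 56 calls of members, 36 stayed past the threshold under every alternative run, and none reversed.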
